A study of Caenorhabditis elegans with 4 samples.

Results

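The regions described here are the stretches of chromosomes V and X on which RNA polymerase II (Pol II) was called bound in wild-type Caenorhabditis elegans larvae. They are all entries of the deposited peak list whose chromosome is V or X: 186 regions on V and 159 on X, together 345 of 1888 (18.3%). The animals were hermaphrodites of the N2 strain at the L2 stage, raised at 20 °C in liquid culture on bacteria. Chromatin immunoprecipitation and sequencing (ChIP-seq) gave 2 ChIP libraries, made with the antibody 8WG16 against the C-terminal repeats of the largest Pol II subunit, and 2 libraries of input DNA, the unselected chromatin that serves as background. The authors' list combines all 4 libraries, so no region has a value per replicate, no spread between replicates exists, and the depth of each library is unknown. Whole larvae were used, so a region bound in few cells cannot be told apart from one weakly bound in many. Antibody and stage are those of the sample descriptions and characteristics, whereas the shared protocol text names embryos and an anti-GFP serum.

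Pol II transcribes all protein-coding genes, and 8WG16 favours the form of the enzyme whose C-terminal repeats are not phosphorylated, so it reads elongating Pol II less well. C. elegans autosomes have a gene-rich centre, where recombination is low, and arms with more repeats and more recombination. Chromosome V is the longest chromosome, and its arms carry large families of chemoreceptor genes, many of them used in a few neurons only. The X has no such sharp division into centre and arms, holds few genes with germline functions, and in hermaphrodites is bound by the dosage compensation complex, which lowers transcription from both X chromosomes. These points are background and not results of the list. Positions refer to WormBase WS210 and count from 1, and a region is named by its chromosome and start. No annotation or genome of that build was used, so genes, exons, introns and UTRs under the regions were not examined.

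V and X were the chromosomes with the fewest and the broadest regions. V held 8.94 regions per Mb and X 9.19 per Mb, against a mean of 25.2 ± 12.2 per Mb (SD, n = 4) on chromosomes I to IV, whose lowest value was 14.7. The regions covered 23.0 kb per Mb on V and 26.1 kb per Mb on X, compared with 42.6 ± 8.48 kb per Mb (SD, n = 4) on I to IV. The median width was 1691.5 bp on V and 2428 bp on X, and between 637.5 and 1518 bp on I to IV. For each of these measures V and X lay outside the range of the other 4 chromosomes. An exact two-sided permutation test over the 6 chromosomes gave p = 0.2 for regions per Mb, p = 0.0667 for covered length and p = 0.0667 for median width (Benjamini-Hochberg adjusted p = 0.2, 0.1 and 0.1 over these 3 tests). The smallest p that the 15 arrangements allow is 0.0667, so none of the differences could pass 0.05. Chromosome I, with 42.7 regions per Mb, weighs most on the mean of I to IV. Without it, V and X had 0.469 times as many regions per Mb as the other 3, in place of 0.36 times as many with it. Among the 472 regions of lowest q in the list the ratio was 0.553. The difference in median width was 964.5 bp in the full list, but 159 bp in those 472 regions (exact permutation p = 0.6).

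**Figure D1:**
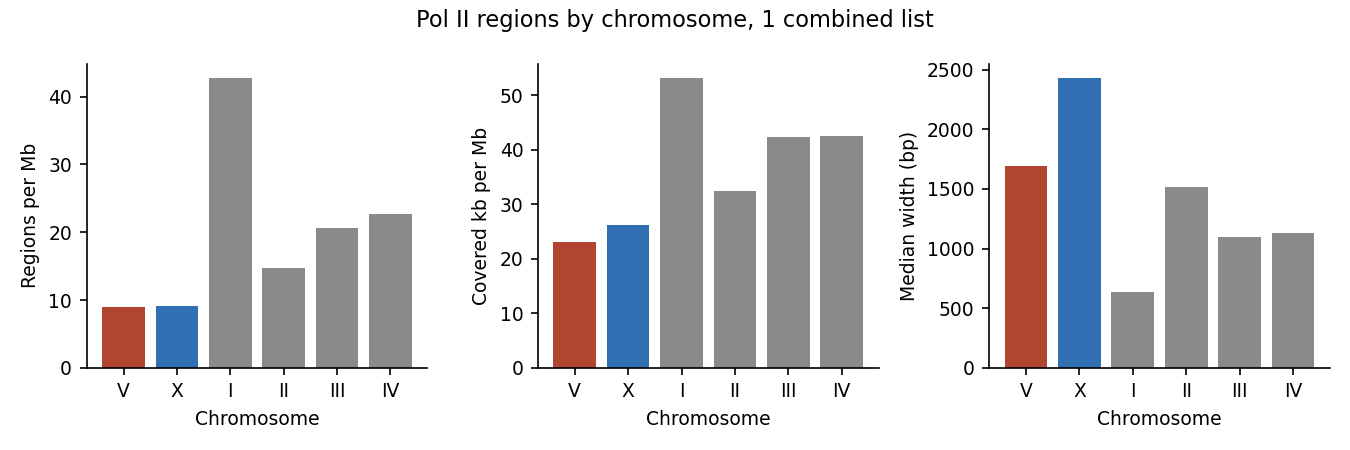
Regions per Mb, covered kb per Mb and median region width in bp on each of the 6 nuclear chromosomes, 1 bar per chromosome and no error bars because the list is a single combined one. V (red) and X (blue) have the lowest bars for number and covered length, and the highest for width, with 1691.5 and 2428 bp.

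In the full list the greater width of V and X regions ran through most of the distribution, but not its upper end. The widest regions of III (20688 bp) and IV (14207 bp) were wider than any on V or X. On V the interquartile range of width was 688.25 to 3519.25 bp, and on X it was 1033 to 4132.5 bp. Domains of 5 kb or more numbered 24 on V (12.9%) and 28 on X (17.6%), beside 8.26% of all regions in the list. Among I to IV they ran from 3.74% of the regions (on I) to 11.7% (on II), close to V. Such domains held 39.6% of the covered length on V and 41.5% on X. That share was 32.1% in the whole list and up to 40.5% (on III) among I to IV. Regions under 500 bp were 30 on V (16.1%) and 17 on X (10.7%), beside 26.7% of the whole list. Among I to IV their share was lowest on II, at 17.9%. The widest region of V was V_10463879, which ran for 13917 bp from 10463879 to 10477795. It was followed by V_10711631 (13420 bp), V_8414964 (12659 bp), V_16776781 (10554 bp) and V_13649642 (10285 bp). On X the widest were X_8014381, from 8014381 to 8027920 (13540 bp), X_5112047 (11212 bp) and X_6735448 (10389 bp). X_11468395 (8888 bp) and X_11477582 (8712 bp) came next, and only 299 bp separated this pair. The shortest distance between neighbours in the whole list was 200 bp.

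The order of the authors' q values, which run from 2.45e-304 to 0.01, also placed V regions high. Of the 472 regions with the lowest q in the list, 74 were on V and 48 on X. That is 39.8% of the V regions and 30.2% of the X regions, where 25% would be an equal share. On I to IV this share ran from 17.8% (on I) to 35.4% (on II), so X lay within their range. V_11887705, from 11887705 to 11890042 (q = 3.27e-295), led V, and X_17419525, from 17419525 to 17424856 (q = 3.2e-294), led X. No single pair of tag numbers was found for these 2 regions. For the other 185 regions of V and 158 of X, the numbers of ChIP and input tags could be recovered from the q values. Enrichment is the ratio of the larger number, read as ChIP tags, to the smaller, read as scaled input tags. Neither label nor file header states this reading, which rests on the match of the numbers alone. The regions of V held a median of 537 ChIP tags (interquartile range 209 to 1053) and those of X one of 579 (228.5 to 1152.25), whereas medians on I to IV ran from 158.5 to 449.

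Enrichment was modest on both chromosomes and lower on X. The median was 1.81-fold on V (interquartile range 1.48 to 2.31) and 1.57-fold on X (1.39 to 2.09). Binomial 95% intervals of these medians, which treat regions as independent, were 1.68 to 1.90 on V and 1.498 to 1.69 on X. On I to IV the medians ran from 1.77-fold (on III) to 2.10-fold (on I). An enrichment of at least 2-fold was reached by 65 regions of V (35.1%) and 41 of X (25.9%), beside 43.9% of all regions with tags. Among I to IV this share ran from 36.9% (on III) to 57.0% (on I). At least 4-fold was reached by 12 of V (6.49%) and 6 of X (3.80%), beside 4.9% of all, and most of these were narrow. Under 1.5-fold lay 47 regions of V (25.4%) and 67 of X (42.4%), beside 17.9% of all. Among I to IV this share was 6.72% on I and up to 24.3% (on II), close to V. The difference between V and X did not show among the 472 regions of lowest q. There the median was 2.07-fold on V and 2.14-fold on X. The difference also depends on the input. The recovered input numbers behaved as multiples of one factor per chromosome, 3.09 on V and 2.76 on X, and a lower factor lowers the input and raises the fold. When the highest factor of the list, 3.16, was applied to every chromosome, the median became 1.78-fold on V and 1.37-fold on X. On I to IV the medians then ran from 1.34-fold (on I) to 1.85-fold (on II). At least 2-fold was then reached by 62 regions of V (33.5%) and 33 of X (20.9%), beside 23.4% of all, so V lay below the list at the listed factors and above it at one factor. At that factor 177 of the 185 regions of V (95.7%) still had a p at or under the largest of the list, but 94 of the 158 on X (59.5%), beside 61.7% of all. The lower starting factor of X makes larger losses there part of the construction. Whether V and X differ in enrichment could not be tested over samples, because each chromosome gives one value in one list.

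Wide regions were the least enriched on X. Among domains of 5 kb or more, the median was 1.62-fold on V and 1.39-fold on X, and 1.92-fold on I to IV. With one input factor it was 1.59-fold on V, 1.22-fold on X and 1.62-fold on I to IV. Regions under 500 bp had medians of 2.21-fold on V and 2.93-fold on X, and held a median of 67 tags on V and 44 on X. A region with few tags enters the list only at a high fold, so the link between width and fold is partly set by the calling. Spearman's rho between width and enrichment was -0.45 across the 185 regions of V and -0.37 across the 158 of X, as a description, since regions of one list share their libraries. The clearest case of a broad, faint domain was X_11409303, chosen after its values were seen. It spanned 6527 bp from 11409303 to 11415829 with 1335 ChIP and 1166 scaled input tags, and was 1.14-fold enriched (95% interval 1.03 to 1.28). With the highest input factor its fold was 1, so it rests on the scaling of the input. The wide pair X_11468395 (1.17-fold) and X_11477582 (1.28-fold) had 1.03-fold and 1.11-fold at that factor.

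**Figure D2:**
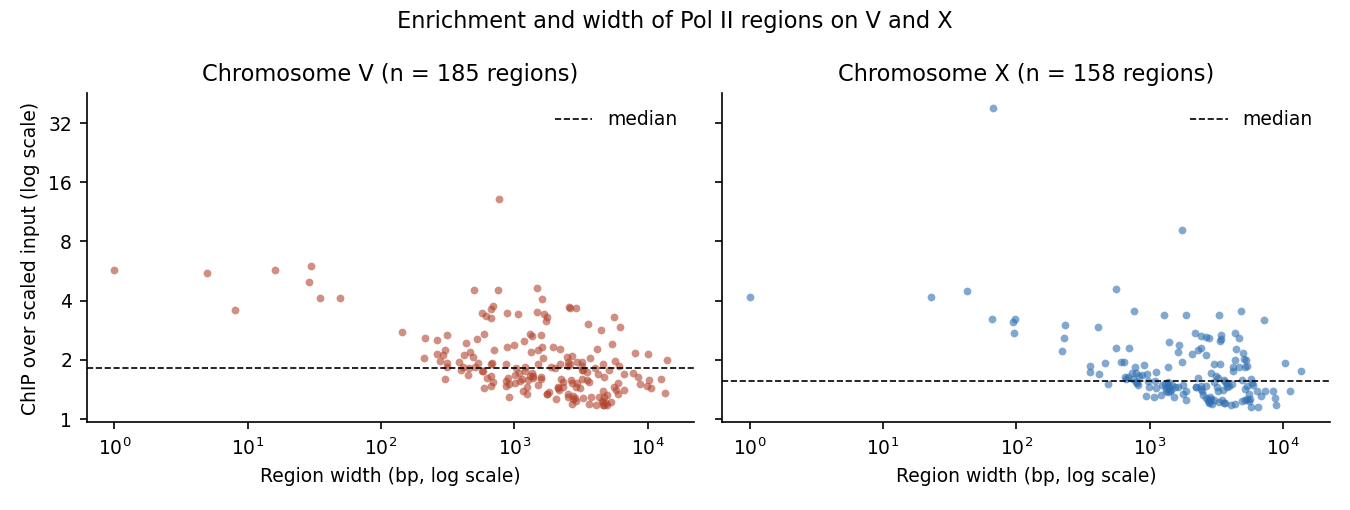
Enrichment (ChIP tags over scaled input tags, log scale) against region width in bp (log scale) for the 185 regions of V and the 158 of X with recovered tags, 1 point per region, with the median as a dashed line. The highest points are V_9088558 at 13.1-fold on V and, on X, X_16936686 (67 bp wide) and X_16933704 at 9.13-fold. X_16936686 had 38 ChIP tags against a scaled input of 1, which works out at 0 input tags before scaling, so its fold has no upper bound. Regions of 5 kb or more have medians of 1.62-fold on V and 1.39-fold on X, but reach 3.30-fold on V and 3.18-fold on X.

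Few regions were strongly enriched, and their share was not particular to V or X. With at least 100 ChIP tags, 5 regions of V and 2 of X reached 4-fold. That is 3.07% of the 163 regions with so many tags on V and 1.39% of the 144 on X, beside 2.52% in the list. Among I to IV this share ran from 0.442% (on III) to 5.21% (on II), so V and X lay within their range. The strongest region was V_9088558, 764 bp wide, with 1222 ChIP tags and 93 of scaled input (13.1-fold, 95% interval 9.2 to 19.6). It did not stand alone, but was the second member of a chain of 5 regions, described below. V_4647100, from 4647100 to 4648574, had 731 ChIP tags against 158 input tags (4.63-fold, 3.49 to 6.30). V_9163698 reached 4.55-fold, V_12491113 4.54-fold and V_1447082 4.09-fold, and with one input factor all 4 stayed between 4 and 4.54-fold. On X the most enriched was X_16933704, from 16933704 to 16935442, with 511 ChIP tags against 56 input tags (9.13-fold, 5.94 to 15.3). X_2328874, 558 bp wide, followed at 4.57-fold (2.98 to 7.46), and X_15075124, X_6279632 and X_8210345 lay between 3.4 and 3.54-fold. With one input factor X_16933704 was 7.98-fold enriched and X_2328874 3.99-fold.

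Apart from V_9088558, whose q was the third lowest of V, and the leaders V_11887705 and X_17419525, whose tags were not recovered, the regions with the lowest q held 1643 to 5359 ChIP tags at 1.92 to 3.67-fold. On V, V_8934239 (6179 bp) had 3846 ChIP tags against 1306 input tags and was 2.94-fold enriched (95% interval 2.66 to 3.27). V_6514570, from 6514570 to 6518119, had 3041 against 994 (3.06-fold, 2.73 to 3.44). V_8038919 had 1643 against 448 (3.67-fold, 3.10 to 4.38). The widest region V_10463879, also among these, held 5359 ChIP tags, more than any other region of V with recovered tags, and was 1.99-fold enriched. On X, X_12662048 was 3.18-fold enriched and X_15075124 3.54-fold, with 2461 ChIP tags against 695 input tags. X_14789284, from 14789284 to 14793640, reached 2.74-fold (2.44 to 3.09) and X_13143082, from 13143082 to 13146492, 2.68-fold (2.39 to 3.01). X_6735448 held 5289 ChIP tags and was 1.92-fold enriched. At the other end of the list, the last region of V inside the limit was V_14055078 (q = 0.00993, 109 ChIP tags against 68 input tags) and the last of X was X_10842025 (q = 0.01, 135 against 89). Regions just outside the limit were not analysed here.

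On chromosome V the regions gathered in the centre. The span between the outermost regions was divided into 3 equal parts. The central one held 92 regions (49.5%, Wilson 95% interval 42.4% to 56.6%), and the left and right ones held 47 each. This is 13.3 regions per Mb in the centre and 6.78 per Mb on each side. In covered length the centre had 245 kb, the left part 123 kb and the right part 112 kb. Median width was 1934 bp on the left, 1739.5 bp in the centre and 1381 bp on the right, and median enrichment 1.78, 1.82 and 1.79-fold in the same order. The median number of ChIP tags was 635 on the left, 541 in the centre and 318 on the right. At least 2-fold was reached by 29.8% of the regions with tags on the left, 35.2% in the centre and 40.4% on the right. By bins of 1 Mb, the fullest were 9 to 10 Mb with 22 regions, 11 to 12 Mb with 18 and 14 to 15 Mb with 15. The 4 Mb from 8 to 12 Mb held 66 regions (35.5% of those on V, in 19.2% of the span), whereas the 4 Mb from 15 to 19 Mb held 12 (6.45%). These windows were chosen after the bins were seen. The sparse right side did not reach the tip of the chromosome. The last bin, from 20 Mb to the last region at 20848394, again held 12 regions with 32.1 kb covered, a median width of 848.5 bp and a median enrichment of 2.10-fold.

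In number of regions the X was even by large parts and uneven by smaller ones. The left, central and right parts held 54, 52 and 53 regions, so the centre had 32.7% (Wilson interval 25.9% to 40.3%), close to the 33.3% of an even spread. Covered length was less even, with 135, 167 and 151 kb in the same order, so the centre had 36.9% of it. Median width was 1877, 2551.5 and 2656 bp, and domains of 5 kb or more numbered 6, 13 and 9. The central share of regions on X was below those of I to IV, which ran from 35.8% to 48.4%, and that of V was above them. However, the Wilson intervals overlapped. That of V overlapped those of I (44.6% to 52.3%), II (37.2% to 50.1%) and III (42.1% to 53.7%). That of X overlapped those of II and IV (31.2% to 40.6%). Within these parts the regions were unevenly placed. The 5 Mb from 2 to 7 Mb held 66 regions, 41.5% of those on X in 28.9% of the span. The fullest bin, 6 to 7 Mb, had 22 regions, and 2 to 3 Mb and 4 to 5 Mb had 14 each. The 2 Mb to the left of this window held 7 regions, and the bin just to its right, 7 to 8 Mb, held 5. From 7 Mb on, no bin had more than 11. How uneven the bins of X were beside those of the autosomes depends on the measure. The SD of the regions per full 1 Mb bin was 53.5% of the mean on X and 63.5% on V, and 43.6% to 59.7% on I to IV. The variance over the mean was 2.53 on X and 3.51 on V, and 5.03 to 8.10 on I to IV, whose bins hold more regions. The dense window of X was not its broadest or most enriched stretch. Regions from 2 to 7 Mb had a median width of 1697 bp and a median enrichment of 1.59-fold, against 2428 bp and 1.57-fold on the whole X. No bin of V or X was empty, and the sparsest of each held 2 regions.

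**Figure D3:**
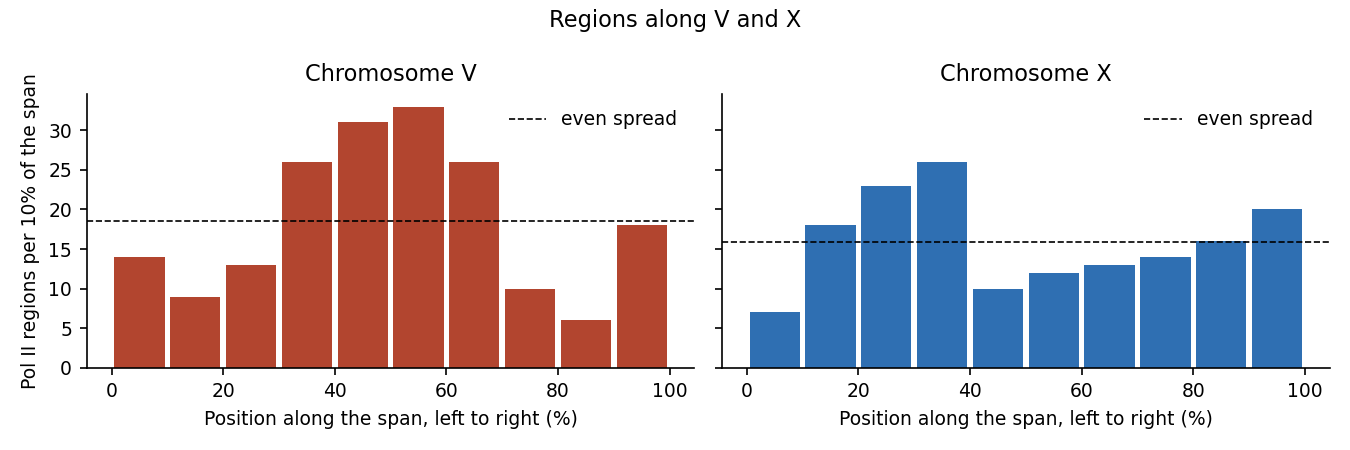
Number of Pol II regions in each of 10 equal parts of the span of V (left) and X (right), from the left to the right end, with the even spread as a dashed line. On V the 4 central bars hold 26 to 33 regions and the last bar rises again to 18; on X the bars between 10% and 40% of the span hold 18, 23 and 26 regions, and the next one 10.

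Long stretches without a listed region were found on both chromosomes. Distances from the end of one region to the start of the next were called long at 500 kb or more. They numbered 4 of 185 on V, 6 of 158 on X and 3 of 1539 on I to IV. All of these made up 0.691% of the distances in the list. Chromosome II held 2 of the 3 on I to IV, which took up 10.8% of its span and reached 890079 bp. The long stretches took up 3.66 Mb of V (17.6% of its span) and 3.34 Mb of X (19.3%). On V they were few and long. The longest ran from 15191346 to 16366696 (1175 kb, between V_15189523 and V_16366697) and the next from 2731184 to 3771567 (1040 kb, between V_2729974 and V_3771568). The other 2 followed one another on the right side, from 17128257 to 17967898 (840 kb) and from 17968983 to 18571990 (603 kb). They were parted only by V_17967899, a region of 1084 bp with 101 ChIP tags against 59 input tags (1.71-fold, 95% interval 1.05 to 2.98; q = 0.00485). Without this one weak region, the 2 stretches would join into the longest of V. All 4 lay in the outer parts of V. On X the stretches were shorter and spread along the chromosome. The longest ran from 1490118 to 2144247 (654 kb), followed by 13351751 to 13920164 (568 kb), 10842830 to 11406651 (564 kb) and 326425 to 861351 (535 kb). The other 2, of 511 kb each, were centred at 15.9 and 9.01 Mb. The stretch near the left end of X lay between the first region, X_324007 (385 ChIP tags against 262, 1.47-fold), and X_861352 (1210 against 486, 2.49-fold). An empty stretch says only that the list holds no region there. The 42 ranks before the first listed region have no known position, and mappability and read depth along a stretch are unknown.

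Neighbouring regions on V and X lay far apart. Distances, and the runs described below, depend on the number of regions per Mb, which was lowest on V and X. They were not corrected for it. The median distance to the next region was 54141 bp on V and 61791 bp on X, against 13886 bp over I to IV pooled, with chromosome medians there of 6409 to 26440 bp. Distances of 5 kb or less were 40 of 185 on V (21.6%) and 29 of 158 on X (18.4%), beside 33.2% in the list. Regions with no neighbour within 5 kb numbered 120 on V (64.5%) and 108 on X (67.9%), beside 47.2% of the list, and up to 57.4% (on II) among I to IV. On X these isolated regions had a median width of 2632.5 bp, and on V of 1980.5 bp.

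**Figure D4:**
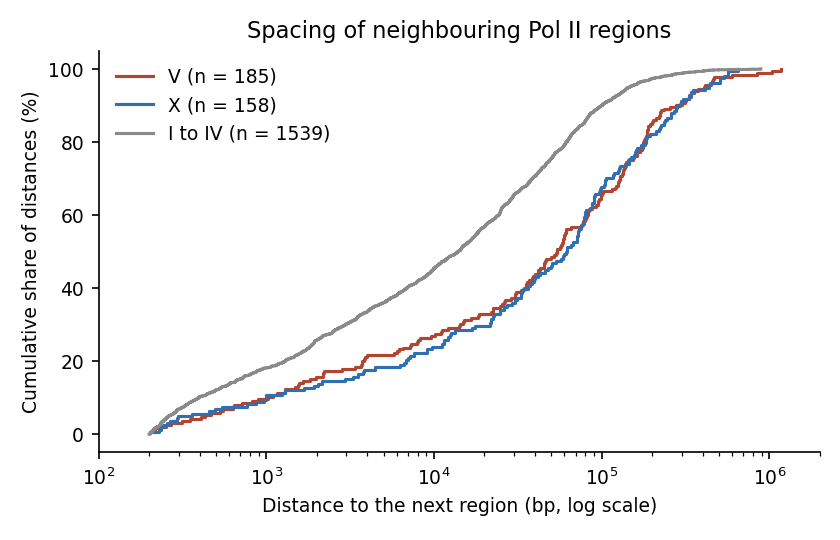
Cumulative share of distances from one region to the next (bp, log scale) on V, on X and on I to IV pooled. The curves of V and X run close together and to the right of that of I to IV, with medians of 54141, 61791 and 13886 bp.

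Runs of 3 or more regions joined by distances of 5 kb or less numbered 8 on V, with 30 regions (16.1%), and 3 on X, with 13 regions (8.18%), beside 27.5% of all regions in the list. On I to IV the share ran from 13.9% on II to 46.9% on I, so V lay within their range and X below it. The longest run of V had 5 regions, from V_9085707 to the end of V_9094974 at 9097674, within 11.97 kb. It held the most enriched region of V, V_9088558, and V_9090880 (3.27-fold), while its outer members V_9085707 (1.65-fold), V_9093369 (1.66-fold) and V_9094974 (1.52-fold) were weakly enriched. Further to the right, 4 regions from V_9159158 to V_9164916 made up a run of 7.4 kb, whose median enrichment of 2.75-fold was the highest of the 8 runs. Its members were V_9159158 (3.46-fold), V_9160290 (1.75-fold), V_9163698 (4.55-fold) and V_9164916 (2.04-fold). Both lie in the fullest bin of V. By the order of the naming rule, the runs from V_20403400 to V_20417588 and from V_11071336 to V_11082214, with 4 regions each, came after the longest. The first of these lies near the right tip, and its members ranged from 1.22 to 2.13-fold.

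The longest run of X was also the longest of both chromosomes. It had 7 regions from X_2587947 to X_2605912, which covered 78.9% of 19.3 kb, with distances of 228 to 1931 bp between them. Their ChIP tags were 886, 315, 603, 453, 254, 330 and 207 from left to right, against 742, 216, 315, 362, 171, 169 and 149 scaled input tags. X_2603923 (1.95-fold) and X_2594956 (1.91-fold) were the most enriched members and X_2587947 the least (1.19-fold). With one input factor, 2 of the 7 kept a p within the largest of the list. The next runs, of 3 regions each, were X_16790978 to X_16802658 (1.40 to 1.497-fold) and X_11406652 to X_11417983 (1.14 to 2.38-fold). The 13 regions in runs of X had a median width of 1872 bp and a median enrichment of 1.46-fold, against 2632.5 bp and 1.58-fold for the isolated regions of X. On V the medians were 1.71-fold in runs and 1.81-fold in isolated regions. On I to IV the medians in runs were between 1.86 and 2.15-fold, all above V. With one input factor the order changed: the median in runs was 1.68-fold on V and 1.28-fold on X, against 1.34 on I, 1.45 on IV, 1.88 on III and 2.15 on II. No test of these differences was made, since regions of one list are not replicates.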

How the data were processed

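The deposited file is one combined list of regions from 2 ChIP and 2 input libraries. Peaks were called with PeakSeq on WormBase WS210, per the file headers and the records themselves. The q-value of each region was deposited by the authors. The sources used here do not give the aligner, PeakSeq's version and thresholds, or how libraries were combined. Members and measures were chosen with earlier results of these data known.

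Each q was converted to its p, with 42 ranks before the first region and 15045 tests, both derived from the list. The 42 regions ranked first were not analysed here. A pair of whole numbers whose binomial tail (probability 0.5) matched p within 1e-09 was found for 1878 of 1888 regions, 343 of them on V or X. In a list simulated from the same binomial model, 859 of 859 pairs were recovered. Its totals and p values were less extreme than the most extreme of the real list, so it does not test recovery there or the model itself. Input factors were scanned from 1.3 to 5; 97.3% of input counts on V and 96.8% on X lay on multiples, against 32.4% and 36.3% of whole numbers. Intervals of folds are exact (Clopper-Pearson) on tags before scaling and cover counting error only. Numbers come from Python 3.11.15 and scipy 1.17.1.

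Named on each chromosome were the 6 regions of lowest q, the 5 widest, the 5 most enriched with 100 tags or more, the 3 longest runs, the 4 longest empty stretches, the 3 fullest bins and both end regions; others were chosen after their values were seen. Tests were two-sided exact permutations of V and X against I to IV. Alternatives were stricter lists, merging, a width floor, other lengths and limits, and one input factor, where regions without tags stayed in.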

Additional observations from a re-analysis of the deposited data

How the results depend on the processing

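Of 87 alternatives, 62 were classed as the same and 25 as moved. For the chromosome tests, the same meant an unchanged direction and call. For shares and medians it meant a value inside the interval of the main value, and for counts of stretches one within 1.5 times it. A reversal could be called only for the chromosome tests, and 0 were. The chromosome tests could not pass 0.05 under any alternative, so their constancy says nothing of stability. Without chromosome I, added after the data were seen, the smallest possible p was 0.1. The difference in median width was 159 bp in the 472 regions of lowest q (exact permutation p = 0.6), against 964.5 bp in the full list. In that list the central share of V was 56.8%. Within the central 50% of the span lay 70.4% of V regions and 50.3% of X regions, where 50% is even. Empty stretches of 500 kb or more numbered 9 on V in the better 944 regions, 11 on V and 11 on X in the better 472, and 10 on X with one input factor. With limits of 300 kb and 1 Mb they numbered 18 and 2 on V, and 14 and 0 on X. The share in runs on V was 4.05% in the better 472, 9.14% and 3.82% after merging within 500 and 2000 bp, and 8.06% and 25.3% with distances of 2 and 10 kb. On X it was 0% in the better 944, in the better 472 and under one input factor. It was also 0% after merging within 2000 bp, a step that removes close neighbours by construction. With distances of 2 and 10 kb it was 6.29% and 14.5% on X. The median enrichment in the better 472 was 2.07-fold on V and 2.14-fold on X. In the better 944 it was 1.90-fold on V and 1.85-fold on X. With one input factor over all listed regions it was 1.78-fold on V and 1.37-fold on X. The order of V and X in enrichment therefore depends on the list, with X above V only in the better 472. Fewer regions in the stricter lists lengthen distances by construction. The cause of the other shifts was not tested. No paired analysis was possible because replicates have no values of their own, and no replicate could be left out. Depth per library is unknown.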
